A study of Mus musculus with 17 samples.

Results

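The cytosolic ribosomal protein genes were examined in laser-captured dentate gyrus of mice lacking 3 FOXO transcription factors. A gene was included when a probe set of the array carried its symbol alone, the symbol being Rpl or Rps followed by a number, Rpsa or Rplp0 to Rplp2. The kinases of the Rps6k family, Rps19bp1 and pseudogenes were left out. This gave 49 genes of 18193 genes measured with a symbol of their own, 23 of the small 40S subunit and 26 of the large 60S subunit, on 105 probe sets. Each gene was represented by its probe set with the highest mean level. A further 31 ribosomal protein symbols, among them Rpl3, Rpl5, Rpl10 and Rplp1, stood only on probe sets shared with other symbols and were not described.

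RNA was measured on Affymetrix mouse expression arrays in 8 KO and 7 WT samples. KO mice carried deletions of Foxo1, Foxo3 and Foxo4, made by crossing floxed alleles to hGFAP-cre, a transgene driven by the human GFAP promoter that acts in progenitors of neurons and glia, so that both lineages lost the genes. The mice were on a mixed FVB and B6 background. The alleles of the WT mice and the age and sex of the animals are not stated for these samples, and the labels name the tissue only as brain. Foxo1, whose loss checks the labels, lay between 12.33 and 13.94 in WT samples and between 7.33 and 9.44 in the KO samples, a log2 fold change of -5.08 ± 0.30 (SE, adjusted p = 1.16e-07). Levels here are log2 of the signal after adding 32, quantile normalized, and a fold change on this scale understates the change of dim genes.

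Each sample name also holds an animal mark and a code of digits and a letter, whose meaning the labels do not give. By the digits of this code the samples fell into a larger code set of 6 KO and 5 WT samples and a smaller code set of 2 KO (390 and 391) and 2 WT (392 and 393). Markers of dentate granule neurons (12 of 12 measured) had a mean level of 10.89 to 11.13 in 14 samples and of 7.68 in KO sample 433, while markers of CA pyramidal neurons (12 of 13 measured) were at 7.77 to 8.57 in the 14 and at 10.79 in KO 433. WT sample 392 had the lowest median correlation with the other samples over all probe sets, 0.9196 against 0.9398 to 0.9663. The other sample with the animal mark 433, which also carries the mark CA13 and stood outside the 15, had 11.01 and 8.06 for these marker lists, the pattern of the 14. The markers of the unmarked KO 433 thus go against dentate gyrus, and the names of the 2 samples of mark 433 may have been exchanged, which was not tested. They were used as labelled. The main results are therefore given with and without KO 433 and WT 392. In bulk tissue, fewer cells of a type and less RNA per cell cannot be told apart.

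Ribosomal proteins are the protein part of the cytosolic ribosome, which translates messenger RNA. Their genes are transcribed at high rates in most cells, and their proteins are made in matched amounts. Many of their messenger RNAs begin with a run of pyrimidines, the terminal oligopyrimidine motif, through which mTORC1 controls their translation. FOXO proteins and mTORC1 both lie downstream of insulin signaling, in which AKT restrains FOXO and activates mTORC1. The array measures messenger RNA levels and not translation.

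Promoter windows of RefSeq (GRCm38.p6, 250 bases before to 50 bases from the annotated start on) were found for 43 of the 49 genes, in 51 windows. Windows of 7 genes that the results below turn on are shown, whether or not they hold the motifs that were sought. Each sequence runs from 80 bases before the annotated start to 20 bases from it on, 5′ to 3′ on the gene's strand. Capitals mark the letters CCGGAAG on either strand, an ETS-type motif, and a run of at least 5 C or T letters that begins with C within 10 bases of the start. A run was counted only where its first C lay within this distance, so runs that began earlier were not marked. Rpl7a holds such a run, which begins more than 10 bases before the start and reaches past it. By this rule the stretches of Rpl4 and Rpl7a hold neither, nor does a further annotated start of Rps27l that is not printed.
Rps10, chr17:27635225-27635324, minus strand: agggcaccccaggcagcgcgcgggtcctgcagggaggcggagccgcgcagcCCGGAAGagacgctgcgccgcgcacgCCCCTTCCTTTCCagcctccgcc
Rpl41, chr10:128549149-128549248, minus strand: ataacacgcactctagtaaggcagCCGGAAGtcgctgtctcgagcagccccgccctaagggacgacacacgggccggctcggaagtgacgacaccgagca
Rpl4, chr9:64173307-64173406, plus strand: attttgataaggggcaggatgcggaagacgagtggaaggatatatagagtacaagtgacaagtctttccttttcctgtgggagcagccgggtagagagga
Rpl7a, chr2:26910727-26910826, plus strand: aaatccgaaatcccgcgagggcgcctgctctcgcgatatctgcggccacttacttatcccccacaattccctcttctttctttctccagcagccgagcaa
Rps27l, chr9:66946006-66946105, plus strand: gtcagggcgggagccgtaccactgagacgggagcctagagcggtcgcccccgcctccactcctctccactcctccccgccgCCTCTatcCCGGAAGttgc
Rps7, chr12:28635934-28636033, minus strand: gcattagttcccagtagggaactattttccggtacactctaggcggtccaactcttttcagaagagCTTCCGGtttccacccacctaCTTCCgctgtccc
Rps9, chr7:3703961-3704060, plus strand: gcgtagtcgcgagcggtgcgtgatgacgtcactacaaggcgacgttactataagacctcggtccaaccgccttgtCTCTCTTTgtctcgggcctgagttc
In the whole windows, CCGGAAG stood in 41.2% of the 51 windows of these genes and in 8.86% of all 32851 windows. The shorter GGAAG, which overlaps it, stood in 92.2% and 71.4%. A pyrimidine run by this rule was present in 51% of the genes' windows and 29% of all. Runs that reached the start but began earlier, as in Rpl7a, are not in these shares. The FOXO core GTAAACA was found in 1.96% of the genes' windows against 3.65% of all, and TTGTTTAC in 0 of 51 windows against 1.23%. TATAAA stood in 11.8% and 13.6%, and ATGGCGGC in 1.96% and 2.24%. All motifs but the pyrimidine run were sought on both strands. The windows of mitochondrial ribosomal protein genes held CCGGAAG in 34.2% of 73 and a pyrimidine run in 37%. Those of ribosome biogenesis genes, a list used below, held them in 38.2% and 27.9% of 68. Median GC content was 57.7% in the windows of the ribosomal protein genes and 52.7% in all windows. A match is a string of letters and not a bound site.

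The first question was whether ribosomal protein messenger RNA differed between KO and WT. None of the 49 genes passed the test, and nearly all had a slightly lower value in KO. In limma, 0 of 49 genes had an adjusted p under 0.05, beside 0.0133% of all 45037 probe sets (6 of them). SAM, the test named in the study's methods, was run here on the quantile normalized log2 signals, with 100 permutations and no fold cutoff. It called 0 of the 49 and 9 probe sets in all. The study applied SAM to RMA values with a fold cutoff, so its count cannot be compared with this one. At an unadjusted p under 0.05, 1 of 49 was lower in KO, beside 1.68% of all probe sets, and 0 of 49 were higher, beside 1.54%. KO and WT samples overlapped in all 49 genes, while they did not overlap in 0.0289% of all probe sets. The log2 fold change was negative in 45 of 49 genes, with a median of -0.15, against 49.5% of all probe sets and a median of 0.00. The values were alike in the 40S genes (21 of 23 negative, median -0.15) and in the 60S genes (24 of 26 negative, median -0.15).

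**Figure D1:**
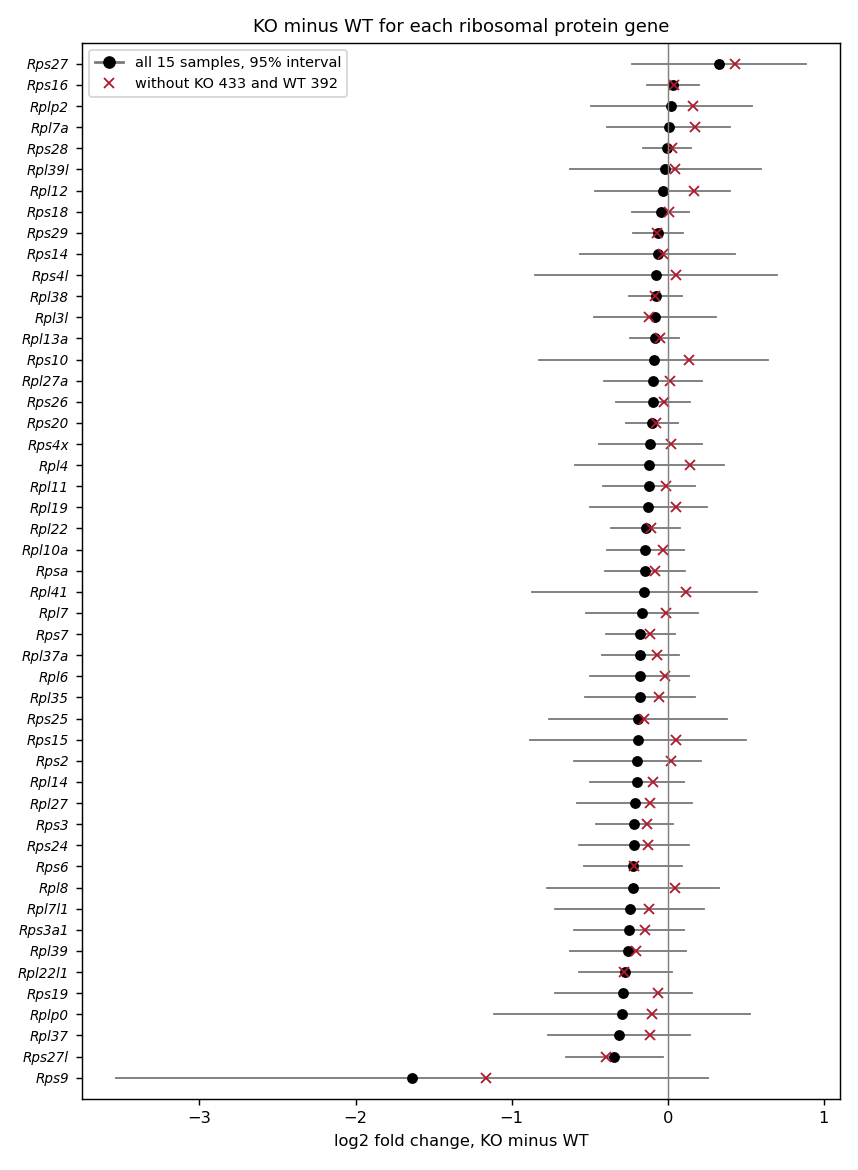
log2 fold change of KO minus WT for each of the 49 ribosomal protein genes, with circles and bars for all 15 samples (limma estimate and 95% interval) and crosses for the estimate without KO 433 and WT 392. The median of -0.15 with all samples was -0.05 without the pair, and only the interval of Rps27l lay wholly below 0.

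The size of the shift varied with the samples used. Each sample was described by the median, over the 49 genes, of the level minus the gene's mean across 15 samples. WT samples ranged from -0.08 to 0.37 around a median of 0.04, and KO samples from -0.23 to 0.22 around a median of -0.07. WT 392 stood at 0.37, and the next WT sample, 41, at 0.10. It was the highest of the 7 WT samples in 27 of the 49 genes. KO 433 stood at -0.21 and was the lowest of the 8 KO samples in 19 genes, though KO 384 stood lower still, at -0.23. Without KO 433 the median fold change of the 49 genes was -0.09, with 42 negative. Without WT 392 it was -0.09, with 36 negative, and without the pair it was -0.05, with 31 negative. With the CA13-marked sample in place of the unmarked KO 433 it was -0.09, with 43 negative and 0 called. In these fits 49.2% to 49.8% of all probe sets were negative. The fits held genotype alone, and leaving out WT 392 leaves unequal numbers of KO and WT samples in the smaller code set. Values for the larger code set alone, which lacks WT 392 but holds KO 433, are given further below. The count at an unadjusted p under 0.05 without the pair was again 1 lower, beside 2.19% of all probe sets.

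**Figure D2:**
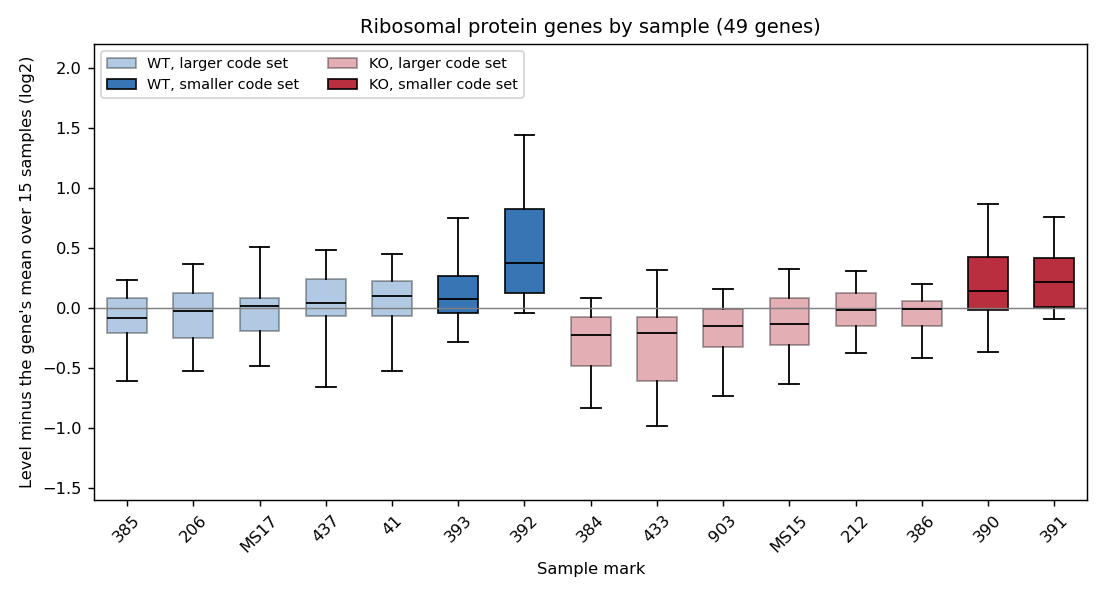
Level minus the gene's mean over 15 samples (log2) for the 49 ribosomal protein genes, by sample. The box spans the quartiles, the line is the median and the whiskers reach from the 5th to the 95th percentile, with WT in blue, KO in red and the smaller code set in the darker shade. The 4 darker samples have medians of 0.08 to 0.37, and the 11 others of -0.23 to 0.10.

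Rps27l, a paralog of the 40S protein gene Rps27 and a known p53 target, was the gene with an unadjusted p under 0.05. Its level ran between 10.64 and 11.34 in the WT samples, around a median of 11.15, and between 10.39 and 11.21 in the KO samples, around 10.66. The groups overlapped, with KO 903, 384, 390 and 433 inside the WT range. The WT mean was 11.08 ± 0.24 (SD, n = 7). The KO mean was 10.73 ± 0.32 (SD, n = 8). The log2 fold change was -0.34 ± 0.15 (SE), with an exact two-sided permutation p of 0.0399 over all 6435 splits and limma's adjusted p = 1. Without KO 433 and WT 392 the value was -0.39. The other probe sets of Rps27l gave -0.22 and 0.00.

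The parent gene Rps27 had the highest positive value, 0.33 ± 0.27 (SE, adjusted p = 1). It was read on 1 dim probe set, with a WT mean of 7.76, while shared probe sets that also carry its symbol were not used. Its level was between 6.78 and 8.65 in the WT samples, around a median of 7.84, and between 7.71 and 8.37 in the KO samples, around 8.14, so that all KO samples lay within the WT range. The remaining positive values belonged to Rps16 (0.03), Rplp2 (0.02) and Rpl7a (0.01). Rps16 was barely above the floor of the scale, at 5.07 to 5.57 over the 15 samples. Rplp2 encodes an acidic protein of the ribosomal stalk, and Rpl7a a 60S protein.

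Rps3 and Rps7 encode proteins of the 40S subunit. Rps7 had a level between 14.73 and 14.99 in the WT samples, around a median of 14.83, and between 14.15 and 14.86 in the KO samples, around 14.74, with KO 433 lowest. Its log2 fold change was -0.17 ± 0.10 (SE, adjusted p = 1), with an exact two-sided permutation p of 0.0497, and -0.10 without KO 433. Limma's unadjusted p for Rps7 was 0.11 with all samples and 0.214 without KO 433. Rps3 lay between 14.49 and 14.81 in the WT samples, around a median of 14.69, and between 13.88 and 14.73 in the KO samples, around 14.58, again with KO 433 lowest. Its fold change was -0.21 ± 0.12 (SE, adjusted p = 1), and -0.13 without KO 433. Its other probe sets gave -0.09 and 0.29. Of 21 named genes given the exact test, 2 had an unadjusted p under 0.05, Rps27l and Rps7. Some of the 21 were chosen for a small limma p in these same data. This count therefore cannot be set against what chance gives.

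Rps6, the 40S protein phosphorylated by S6 kinase downstream of mTORC1, was between 10.19 and 10.87 in the WT samples, around a median of 10.78, and between 10.13 and 10.95 in the KO samples, around 10.38. The ranges overlapped almost wholly, and the fold change was -0.22 ± 0.15 (SE, adjusted p = 1). Its value without KO 433 and WT 392 was also -0.22, while the other, dimmer probe set of Rps6 gave -0.03 with all samples. Rpl11, which binds Mdm2 when ribosome assembly fails, had -0.12 ± 0.14 (SE), which was -0.01 without the pair of samples. Rps19, a gene mutated in Diamond-Blackfan anemia, had -0.29 ± 0.21 (SE), and -0.06 without the pair. Rpsa, the laminin receptor precursor that sits in the 40S subunit, had -0.15 ± 0.12 (SE), and -0.08 without the pair. None of these had an adjusted p under 0.05.

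The paralogs, whose symbols add l or l1 to that of the parent, were looked at for an exchange between a parent gene and its copy. Rpl22 had -0.14 ± 0.11 (SE) and its paralog Rpl22l1 -0.27 ± 0.14 (SE), with levels of the latter between 10.93 and 11.74 in the WT samples, around a median of 11.21, and between 10.69 and 11.33 in the KO samples, around 11.03. Both values thus had the same sign. Rps27 and Rps27l, described above, had opposite signs, 0.33 and -0.34, and neither passed the test after adjustment. The Rps27 probe set was dim, and that of Rps27l ends in _x_at, a type that may hybridise to related sequences. Rps4x gave -0.11 ± 0.16 (SE) and Rps4l -0.08 ± 0.37 (SE), which were 0.02 and 0.05 without KO 433 and WT 392. Rpl39 gave -0.25 ± 0.18 (SE) and Rpl39l -0.01 ± 0.29 (SE), and Rpl7l1 gave -0.24 ± 0.23 (SE), which was -0.12 without the pair. The difference between a parent and its paralog was not tested. Rpl39l, Rpl3l, Rps4l and Rps16 had mean levels under 7. Without the 6 paralogs, 39 of 43 values were negative, with a median of -0.15.

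Rps9, a 40S protein gene, gave the most negative value, -1.64 ± 0.90 (SE, adjusted p = 1), and its brightest probe set was split. It was at 12.12 to 13.11 in 8 samples and at 7.81 to 9.02 in the other 7, with nothing between. The high state held in 5 of 7 WT samples and in 3 of 8 KO samples, the latter being 384, 386 and 391. The exact two-sided permutation p was 0.137. The other probe sets of Rps9 did not show the split: they ranged from 6.81 to 8.08 and from 7.34 to 9.08, with fold changes of -0.09 and -0.04. The residual SD of the split probe set ranked 18 among 45037.

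**Figure D3:**
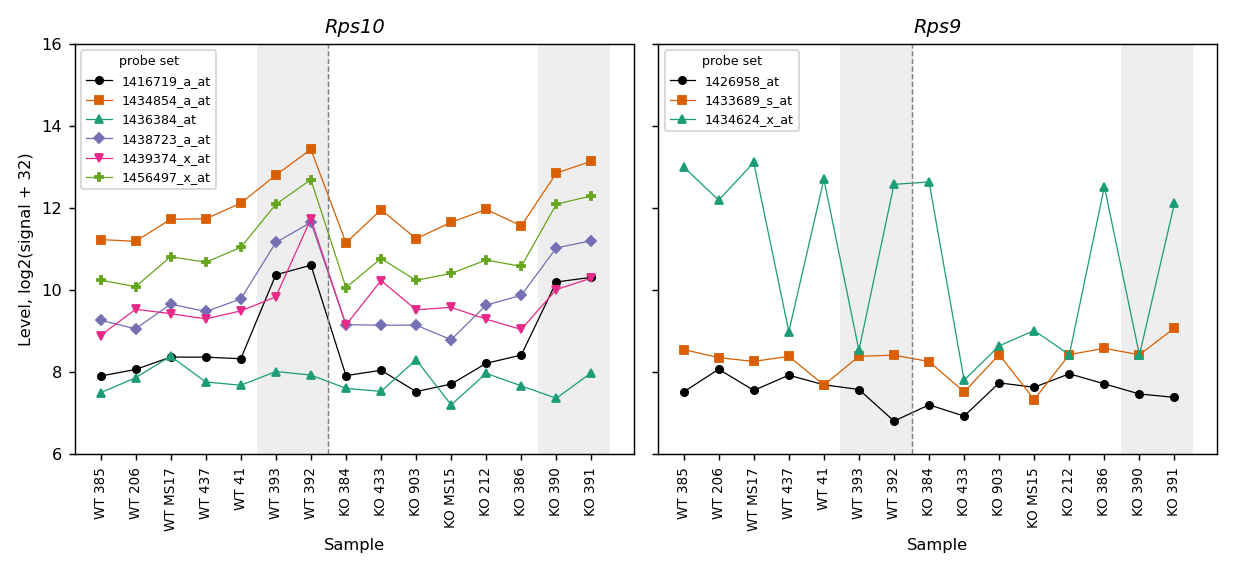
Level, log2(signal + 32), of every probe set of Rps10 (left) and Rps9 (right) in the 15 samples, with grey bands for the smaller code set and a dashed line between WT and KO. Rps10 was higher in the grey samples on 5 of 6 probe sets, while 1 probe set of Rps9 moved between 2 states that the others did not share.

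Probe sets of the same gene were compared over the whole set. Of 24 genes with more than 1 probe set, 17 had KO minus WT values of a single sign and 7 had both signs (Rpl27a, Rpl35, Rpl7l1, Rps14, Rps18, Rps24 and Rps3). The range was widest in Rps9, followed by Rpl27a with -0.09 and 0.50. Of the 40 probe sets whose name ends in _x_at, which may hybridise to related sequences, 38 had a negative value, as did 26 of 28 ending in _a_at and 25 of 34 ending in _at alone. The residual SD within groups had a median of 0.34 over the 49 genes and 0.40 over all probe sets.

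More genes passed the test between the code sets than between genotypes. In a limma fit with genotype and code set as terms, added after the sample values were seen, 12 of 49 genes were higher in the smaller set at an adjusted p under 0.05, beside 4.45% of all probe sets. None was lower, beside 5.37%. The difference was positive in 40 of 49 genes with a median of 0.27, against 52.4% of all probe sets and a median of 0.02. All 4 samples of the smaller set lay above all 11 others in 7 genes (Rps10, Rpl41, Rpl4, Rpl8, Rpl19, Rpl7 and Rps4l), beside 1.94% of all probe sets. By subunit, 9 of 26 60S genes and 3 of 23 40S genes were called. Leaving out each sample in turn gave 5 to 14 called genes: 5 without WT 392 and 7 without KO 390. The share of all probe sets called in these fits is not given. Rps10, Rpl41, Rpl4, Rpl7a and Rpl8 were called in all 15 of these fits.

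Rps10, a 40S protein gene whose promoter is printed above, had a level of 12.81 to 13.43 in the 4 samples of the smaller set and of 11.15 to 12.12 in the 11 of the larger. The ranges did not meet. The difference was 1.46 ± 0.19 (SE, adjusted p = 0.000433). On its 6 probe sets it was 2.28, 1.89, 1.77, 1.46, 1.06 and 0.05, the last on a probe set at 7.21 to 8.39 over all 15 samples. Its KO minus WT value was -0.09 ± 0.35 (SE).

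Rpl41, which encodes a very small 60S protein, lay at 13.92 to 14.32 in the smaller set and at 12.04 to 13.67 in the larger, with KO 212 highest there. The difference was 1.28 ± 0.24 (SE, adjusted p = 0.00386), and 0.78 on another probe set, while the other two gave -0.22 each. Rpl8, a 60S protein gene, had 12.94 to 13.50 in the smaller set and 11.54 to 12.72 in the larger, a difference of 0.96 ± 0.19 (SE, adjusted p = 0.00489). Rpl4, also of the 60S subunit, had 13.55 to 14.24 and 12.42 to 13.45, a difference of 0.82 ± 0.17 (SE, adjusted p = 0.00572). These ranges stayed apart in both genes. Rpl7a had 13.48 to 13.86 and 12.75 to 13.53, a difference of 0.68 ± 0.13 (SE, adjusted p = 0.00489), with KO 212 of the larger set inside the range of the smaller.

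Both stalk genes measured were higher in the smaller set. Rplp0, the stalk's base, lay at 9.85 to 11.31 in the smaller set and at 7.59 to 9.91 in the larger, with KO 433 the highest there and the ranges overlapping, a difference of 1.26 ± 0.33 (SE, adjusted p = 0.0222). Rplp2 had a difference of 0.77 ± 0.21 (SE, adjusted p = 0.0285). Their samples were not ordered alike, since KO MS15 was the lowest of all in Rplp0 but, at 12.75 in Rplp2, the highest of the larger set. Neither was called without WT 392 or without KO 390. The remaining called genes were Rps4l (1.26), Rps19 (0.73), Rpl19 (0.62), Rpl7 (0.53) and Rpl35 (0.51). Rps6 (-0.24), Rps27l (-0.04), Rps29 (-0.08) and Rps20 (-0.07) were among the 9 genes with a negative difference, none of which was called.

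**Figure D4:**
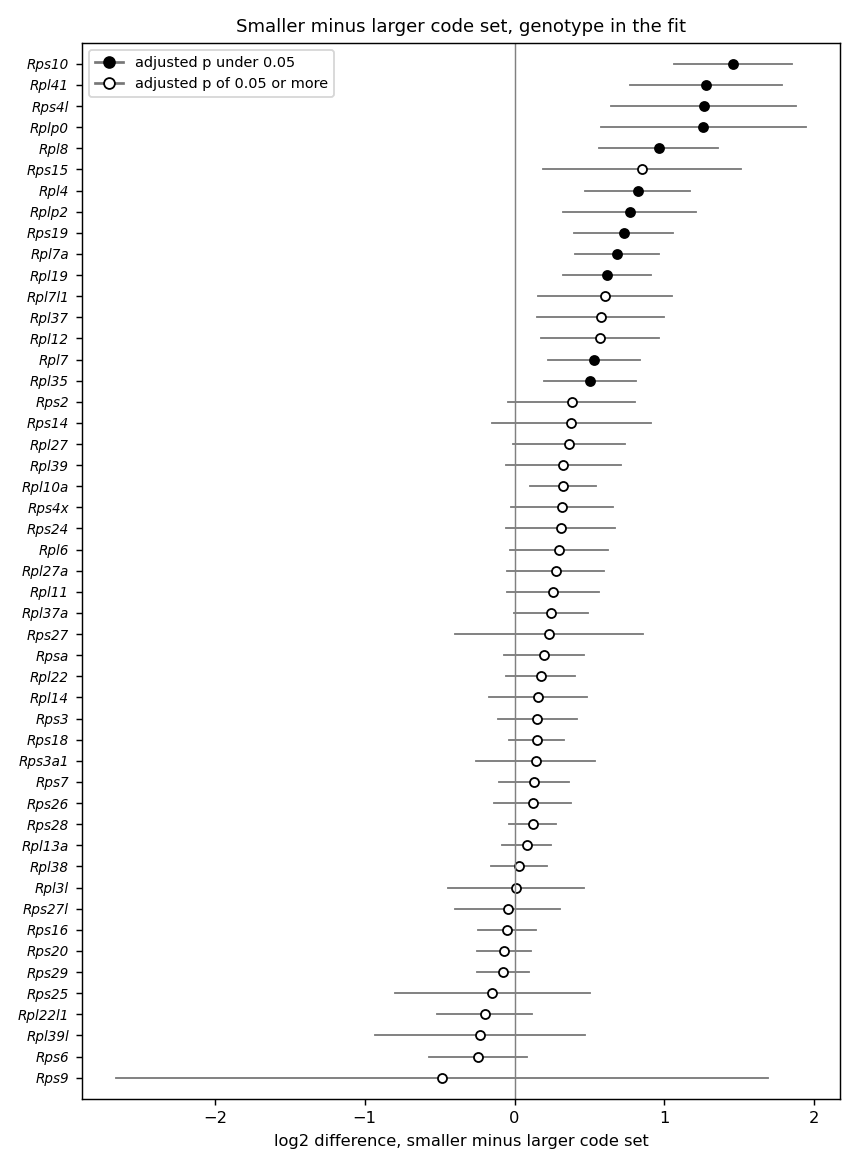
log2 difference of the smaller code set minus the larger for each ribosomal protein gene, with genotype in the limma fit, as estimate and 95% interval. Filled circles are the 12 genes with an adjusted p under 0.05, from 0.51 for Rpl35 to 1.46 for Rps10.

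Measures of RNA and tissue were set beside this difference. The log2 ratio of the 3′ to the 5′ control probe set, a measure of 3′ bias, stood for RNA quality. For Gapdh it was 5.06 to 5.29 in the smaller set and 4.89 to 6.10 in the larger. For Actb it was 5.40 to 6.01 and 5.15 to 6.01. The 3′ signal was thus far above the 5′ signal in every sample of both sets. The mean level of astrocyte markers (5 of 5 measured) was 10.40 to 10.65 in the smaller set and 10.03 to 10.80 in the larger, with 1 marker higher and 1 lower in the smaller set at an adjusted p under 0.05. Oligodendrocyte markers (4 measured) were at 9.91 to 10.30 and 9.15 to 10.60, with none called. Among granule neuron, CA pyramidal neuron, microglia, endothelial and interneuron markers, 1 granule neuron and 1 microglia marker were higher at that threshold and none was lower. The median difference between the code sets was 0.42 for astrocyte and 0.33 for oligodendrocyte markers, and between -0.12 (interneurons) and 0.23 (endothelial cells) in the other lists, beside 0.27 for the 49 genes. The part of any of these in the result was not tested.

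Genotype effects were also compared between the code sets. Within the larger set the median KO minus WT value of the 49 genes was -0.17 (43 negative), and within the smaller, with 2 samples a group, it was -0.09 (33 negative). For the difference of these effects, 0 of 49 genes had an adjusted p under 0.05, beside 0% of all probe sets, and 2 of 49 had an unadjusted p under 0.05, beside 4.84%. These were Rpl27a, with 0.59 ± 0.28 (SE) for the effect in the larger set minus that in the smaller, and the dim gene Rpl3l, with -0.99 ± 0.37 (SE). With code set as a term in the fit, the median KO minus WT value was -0.14.

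Other gene lists around the translation machinery were read the same way. Of 76 mitochondrial ribosomal protein genes, 42 had a negative KO minus WT value, with a median of -0.02, and 0 had an unadjusted p under 0.05. The lowest p belonged to Mrpl33 (-0.35 ± 0.17, SE) and Mrpl16 (-0.25 ± 0.16, SE). A further list of 20 genes was drawn up for the terminal oligopyrimidine motif. It held translation factors but also Hnrnpa1 and the noncoding RNA genes Gas5, Snhg1 and Snhg8. A pyrimidine run by the rule above stood in 41.2% of the 17 windows found for this list, beside 29% of all windows. Of the 20 genes, 16 were negative with a median of -0.06. The lowest p was in Eif3k (-0.34 ± 0.20, SE), a subunit of an initiation factor, and Hnrnpa1 (-0.20 ± 0.14, SE), an RNA-binding protein. Of 66 ribosome biogenesis genes, 29 were negative with a median of 0.03, with the lowest p in Polr1b (0.34 ± 0.19, SE), a subunit of RNA polymerase I, and Wdr36 (0.24 ± 0.12, SE), a factor of pre-ribosomal RNA processing. Fau, a 40S protein made as a fusion, had -0.04 ± 0.20 (SE). Without KO 433 and WT 392, Mrpl16 was at -0.09, Eif3k at -0.18 and Hnrnpa1 at -0.13. In none of these lists did a gene have an unadjusted limma p under 0.05 with all samples, and all adjusted p-values were above 0.05. The exact two-sided permutation p was 0.0249 for Wdr36 and between 0.0684 and 0.87 for the other named genes of these lists.

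Between the code sets, the mitochondrial ribosomal protein genes had a median difference of 0.31, with 19 of 76 higher and 2 lower at an adjusted p under 0.05, beside 4.45% and 5.37% of all probe sets. Mrpl2 had the greatest difference, 1.74. Ribosome biogenesis genes had a median of 0.12 with 4 of 66 higher and 4 lower, 6.06% each and near those shares. The list drawn up for the terminal oligopyrimidine motif had a median of 0.04 with 1 of 20 higher, Eef2, and 1 lower, Eef1b2. Fau was higher by 0.69 (adjusted p = 0.0116).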

How the data were processed

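RNA had been read on Affymetrix mouse arrays for 8 KO and 7 WT samples and for 2 that carry the mark CA13. The study's methods name laser-captured dentate gyrus, while the unmarked KO 433 and the CA13-marked WT 437 had high CA pyramidal and low granule neuron markers. The deposited values are signal intensity on a linear scale, which the authors had summarised per probe set and scaled, so that the trimmed mean (2% off each end) was 500 on every one of 17 arrays. MAS5 is the tool in the submitters' processing notes, and RMA with SAM are those in the study's methods. Arrays have no read depth, and their number limits the precision. No array repeated another.

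After leaving out 64 control probe sets, signals plus 32 were converted to log2 and quantile normalized over the 15 unmarked arrays (over 17 where CA13-marked levels are given). The model of limma 3.58.1 (R 4.3.3) held genotype alone, with eBayes and a variance trend, on 45037 probe sets; Benjamini-Hochberg adjustment covered them all, with a threshold of 0.05. Permutation tests were exact over 6435 splits. Nothing says outright that the samples are separate animals, so p-values measure the spread between these samples.

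Genes given in full were up to 8 with the smallest p in each direction, a fixed list of well-known members and paralogs, the extreme values, and up to 2 of each other list; genes of the code set comparison were chosen after their values were seen. Members and lists were chosen with earlier results of these data known. Symbols come from the platform annotation, and coordinates and promoters from RefSeq GRCm38.p6. The genome build used to design the array is not stated in the sources. The code was tested on simulated data.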

Additional observations from a re-analysis of the deposited data

Results flagged for a closer look

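Of 44 groups of samples tested for a value standing apart (21 named genes and the median deviation, in KO and in WT), 5 held such a value. Some of the genes were chosen from these same data and the groups share samples. This count therefore cannot be set against what chance gives. The median deviation of the 49 genes was 0.37 in WT 392, against 0.10 in the next WT sample. In KO 433, Rps4x was at 12.44 (next sample 13.23) and Rps7 at 14.15 (next 14.60). In KO MS15, Rplp0 was at 7.59 (next 9.24). In KO 386, the dim Rps16 was at 5.57 (next 5.13). Over all 49 genes, 9 of 98 groups held such a value. No gene differed in its genotype effect between the code sets after adjustment.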

How the results depend on the processing

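No alternative gave any of the 49 genes an adjusted p under 0.05 between KO and WT: other pseudocounts, no quantile normalization, a filter on dim probe sets, code set or RNA quality in the fit, array weights, no variance trend, other samples or probe sets, and SAM. The median fold change of the 49 genes stayed negative, from -0.03 (CA13-marked 433 in place, without WT 392) to -0.20 (no quantile normalization, where the median of all probe sets was 0.01). Genes lower at an unadjusted p under 0.05 numbered 2 with RNA quality in the fit, 0 with the mean of a gene's probe sets and 0 without paralogs. With 1 sample left out they numbered 0 to 2, and 1 gene was higher within the smaller code set alone. With all 15 samples 1.68% of all probe sets were lower and 1.54% higher. Without KO 433 1.76% were lower, and without WT 392 2.13%. Shares for the other fits are not given, so these counts are not read as a result about the 49 genes. For genotype by code set, the count was 1 without quantile normalization and 0 to 3 with 1 sample left out. With all 15 samples it was 2 of 49, beside 4.84% of all probe sets. The count of genes higher in the smaller code set ran from 5 to 14 with 1 sample left out.

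Of 628 values of 21 named genes under alternatives, 35 had the opposite sign, and 14 genes had no such value. These were Rpl39l with a pseudocount of 1 (0.34), RNA quality (0.038), array weights (0.078), without KO 433 and WT 392 (0.045), the CA13-marked 433 without WT 392 (0.095) and the larger code set alone (0.049); Rpl7a without quantile normalization (-0.059) and in the larger set (-0.018); Rps4x without KO 433 and WT 392 (0.021); and, in the smaller set alone, Rpl22 (0.0064), Rps3a1 (0.21) and Rps4x (0.11). With 1 sample left out, Rpl39l ran from -0.16 to 0.14, Rpl7a from -0.082 to 0.10, Rplp2 from -0.093 to 0.15, Rps16 from -0.028 to 0.044 and Rps4x from -0.17 to 0.020. Fau was at 0.037 (array weights), 0.086 (without the pair), 0.051 and 0.18 (CA13-marked 433, with and without WT 392), 0.065 (larger set) and -0.15 to 0.089 (1 sample left out, -0.039 without KO 433). The mitochondrial median was 0.019 without the pair, -0.031 without KO 433 and 0.036 without WT 392. No paired analysis was possible because the sample names share no replicate numbers. The causes were not tested.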

Other observations

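The samples marked CA13 were kept out of the KO and WT groups, except that the one of KO 433 also took the place of the unmarked KO 433 as an alternative. Normalized with all 17 arrays, the median deviation of the 49 ribosomal protein genes from their means over the 15 others was 0.07 in the CA13-marked sample of KO 433, with 30 genes above their means, and -0.27 in that of WT 437, with 8 genes above. The unmarked samples of the same animal marks were at -0.21 and 0.04. Granule neuron markers had a mean level of 11.01 in the CA13-marked KO 433 and 7.72 in the CA13-marked WT 437, and CA pyramidal markers of 8.06 and 10.78. Rps9's split probe set was low in both, at 8.21 and 7.80.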
